A study of Mus musculus with 18 samples.

Results

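The AP-1 (activator protein 1) family genes were followed through sorted liver lymphocytes and macrophages of mice bearing MC38 liver metastases. The 10 genes Fos, Fosb, Fosl1, Fosl2, Jun, Junb, Jund, Atf3, Batf and Maff were taken by name as members of the family, and all 10 were found among the 54309 genes of the lymphocyte counts and among the 13759 genes of the macrophage counts. All of the mice were female C57BL6/J animals of 8 to 10 weeks that received MC38, a colon adenocarcinoma line of the mouse, through the spleen, which was then taken out, and the livers were taken at day 20. No genotype or drug separated the groups. The lymphocytes gave 12 libraries, 3 each of NK cells from metastasis-free liver (MFL NK), CD49a- NK cells from liver metastases (LM CD49a- NK), CD49a+ NK cells from liver metastases (LM CD49a+ NK) and type 1 innate lymphoid cells from metastasis-free liver (MFL ILC1), each sorted from 6 to 8 pooled tissue samples as NKp46+ cells without lineage markers. The titles of the LM CD49a+ NK libraries call them ILC1 and their cell type label calls them CD49a+ NK cells, which is the name used here. The metastasis-associated macrophages (MAMs) gave 6 libraries, 3 each of F4/80high and F4/80low cells, all sorted from metastases. All of these values come from a single implanted line, and each lymphocyte library averages several pooled mice or lesions.

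AP-1 is a dimer of basic leucine zipper (bZIP) proteins. FOS proteins need a JUN partner to bind DNA, JUN proteins can also pair with each other, and ATF3, BATF and the small MAF protein MAFF join the same dimer network. In NK cells AP-1 lies downstream of activating receptors, and in macrophages it works beside lineage factors at inflammatory enhancers. Fos, Fosb, Junb and Atf3 are immediate early genes, whose transcripts can rise within minutes of a receptor signal and also while a tissue is being cut and digested. This bears on the design, because the metastases were cut and treated with Liberase TL and DNase I, whereas the metastasis-free parenchyma was only crushed and filtered. Site and dissociation therefore cannot be told apart in any comparison of metastasis with metastasis-free liver. Comparisons within the metastasis, within the metastasis-free liver and between both MAM subsets do not carry this difference.

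In the GENCODE vM39 annotation of GRCm39, Jun (chr4:94937271-94940459) and Jund (chr8:71151599-71153265) are genes with a single exon block. Fos (chr12:85520658-85524047) and Batf (chr12:85733423-85755861) lie on the same chromosome, as do Junb (chr8:85701113-85705359) and Jund. The other members lie at chr7:19036621-19043976 (Fosb), chr19:5497575-5505974 (Fosl1), chr5:32292707-32315186 (Fosl2), chr1:190902493-190950241 (Atf3) and chr15:79230821-79243276 (Maff). The stretches of 120 bases just upstream of the RefSeq start are shown for 6 members, because immediate early genes are known for the response elements in this region and because these 6 span the FOS, JUN, ATF and small MAF genes. They come from RefSeq on the build GRCm38.p6 and read 5′ to 3′. Capitals mark matches, on either strand, to TGACG (the core of a cyclic AMP response element, CRE), to the CRE-type site TGACNTCA or to the TATA box TATAAA. RefSeq gives 3 starts for Maff. The stretch before the middle start is shown because it holds the full TGACGTCA, while no motif was found before the first start and TGACATCA and TGACG were found before the last. Some matches overlap, since TGACGTCA holds TGACG on both strands.

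Fosl2 (chr5:32136352-32136471, + strand): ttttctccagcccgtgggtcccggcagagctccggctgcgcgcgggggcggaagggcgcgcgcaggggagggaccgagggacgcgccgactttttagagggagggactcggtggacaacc
Maff (chr15:79347400-79347519, + strand): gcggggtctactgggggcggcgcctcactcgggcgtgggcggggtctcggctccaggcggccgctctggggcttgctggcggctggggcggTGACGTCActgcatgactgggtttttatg
Junb (chr8:84978749-84978868, - strand): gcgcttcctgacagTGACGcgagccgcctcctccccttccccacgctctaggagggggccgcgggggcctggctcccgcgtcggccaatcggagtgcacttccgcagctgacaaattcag
Fos (chr12:85473770-85473889, + strand): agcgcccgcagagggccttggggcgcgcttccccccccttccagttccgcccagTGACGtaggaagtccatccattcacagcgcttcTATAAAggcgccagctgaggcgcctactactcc
Jun (chr4:95052223-95052342, - strand): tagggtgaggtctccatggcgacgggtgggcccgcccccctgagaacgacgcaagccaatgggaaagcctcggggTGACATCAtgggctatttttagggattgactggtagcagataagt
Atf3 (chr1:191183334-191183453, - strand): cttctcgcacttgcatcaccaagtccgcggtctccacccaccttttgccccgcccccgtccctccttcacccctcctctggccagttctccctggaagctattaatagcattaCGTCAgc

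Of the 9 members with a RefSeq window, 6 (Atf3, Batf, Fos, Fosb, Junb and Maff) held TGACG within 250 bases upstream, against 17.8% of the 32851 windows of that length. The CRE-type site was found in 2 (Jun and Maff), against 7.49% of windows, and TATAAA in 1 (Fos), against 12.4%. The AP-1 site TGANTCA was found in none of the 9, against 6.75% of windows, which says only that these letters are not in these windows. Maff was counted over its 3 windows, which gives it more chances of a match than the shares per window do. In Fosl2, whose level differed most often in the comparisons that follow, no capital appears in the stretch. TGACG was added to the motifs after the windows had been read, and a match is a description of letters, not of binding.

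Library totals ran from 8795721 to 14386834 counts for the lymphocytes and from 21278959 to 32267015 for the MAMs. The 10 members together took 0.380% to 0.934% of the counts of a lymphocyte library and 0.341% to 0.891% of those of a MAM library. Values below are CPM, counts scaled by TMM to a common library size with no correction for gene length, and mean values carry the SD over 3 libraries. The lymphocyte libraries differed widely within a group: the common coefficient of biological variation was 1.25 for LM CD49a- NK and 1.09 for LM CD49a+ NK cells, against 0.517 for MFL NK cells and 0.657 for MFL ILC1, and 0.164 and 0.160 for the F4/80high and F4/80low MAMs. The sorting genes followed the labels. Itga1, which encodes CD49a, was 11.5 ± 7.46 CPM in MFL NK, 11.4 ± 5.62 in LM CD49a- NK, 134 ± 26.5 in LM CD49a+ NK and 663 ± 17.1 in MFL ILC1 (SD, n = 3 each). Eomes, a transcription factor of NK cells, was at 500 to 1147 CPM in the NK groups and at 7.58 to 40.2 CPM in MFL ILC1, and Adgre1, which encodes F4/80, was 958 ± 187 CPM in F4/80high and 146 ± 19.0 CPM in F4/80low MAMs. The summed level of 7 T cell markers was 249 to 681 CPM in MFL ILC1 against 4.98 to 35.7 CPM in the other lymphocytes. Cd3g had the highest mean of this list in every lymphocyte group. Of 5 T cell markers tested for MFL ILC1 against MFL NK, it alone had an edgeR adjusted p under 0.1. The sum of 6 hepatocyte markers was 32.9 to 199 CPM in MFL NK, 104 to 121 CPM in MFL ILC1 and 10.6 to 66.5 CPM in the LM groups. The summed level of 6 dendritic cell markers was 5.31 to 10.2 CPM in MFL NK, 11.6 to 82.0 in LM CD49a- NK, 14.3 to 47.8 in LM CD49a+ NK and at most 5.59 in MFL ILC1, with Clec9a and Xcr1 at 0 in all NK libraries. That of 7 tumor epithelium markers was 0.295 to 2.53 CPM in MFL NK, at most 4.73 in LM CD49a- NK, 23.8 to 51.5 in LM CD49a+ NK and 59.3 to 95.2 in MFL ILC1. Cdh1 was the highest of them in LM CD49a+ NK and in MFL ILC1. In these groups 5 and 4 of the 7 were at 0 in all libraries, among them Cldn3, Cldn7, Krt18 and Krt19 in both. Of 2 tested, only Cdh1 had an edgeR adjusted p under 0.1 in either group against MFL NK. Of 7 neutrophil markers, 6 or more were at 0 in every library of the LM groups. The part of these cells in the comparisons was not tested. In bulk RNA a lower level cannot be told apart from fewer expressing cells.

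On a scale per kilobase of exon, which allows genes to be compared, the JUN genes made up most of the AP-1 transcript pool of lymphocytes. Jun, Junb and Jund together held 78.7% ± 2.10 (SD, n = 3) of the summed level of the 10 members in MFL NK, 77.5% ± 5.24 in LM CD49a- NK, 76.9% ± 5.49 in LM CD49a+ NK and 81.1% ± 5.00 in MFL ILC1 cells. The member with the highest mean level per kilobase of exon was Jund, a JUN gene known for steady expression, in MFL NK (36.4% ± 3.04), LM CD49a- NK (32.1% ± 4.31) and MFL ILC1 (34.4% ± 2.04), and Junb in LM CD49a+ NK cells (31.1% ± 8.26, against 27.1% ± 6.08 for Jund). Junb and Jund did not differ beyond their spread in either LM group, since Junb was at 27.3% ± 11.7 in LM CD49a- NK, and with the longest transcript as length Junb led there too (30.5% against 27.6%). By level per kilobase, Jund ranked 29 of the genes tested in MFL NK and Junb 49. Fosl2 held a share of 1.17% to 2.20% in MFL NK and 3.69% to 6.78% in LM CD49a- NK libraries. Batf had mean shares of 0.528% to 0.568%, and Fosl1, the member with the lowest mean share in each lymphocyte group, had at most 0.191% in any library. In the MAMs the largest share per kilobase of exon was that of Fos, with 29.1% ± 0.799 in F4/80low and 41.9% ± 2.00 in F4/80high cells. With the longest transcript as length, Junb led in F4/80low cells (29.5% ± 0.461 against 27.6% ± 0.996 for Fos), and Fos still led in F4/80high cells. Fos ranked 31 and 34 by level per kilobase among the genes of the F4/80low and F4/80high MAMs. The lymphocyte and MAM files come from different library kits and were not compared with each other.

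**Figure D1:**
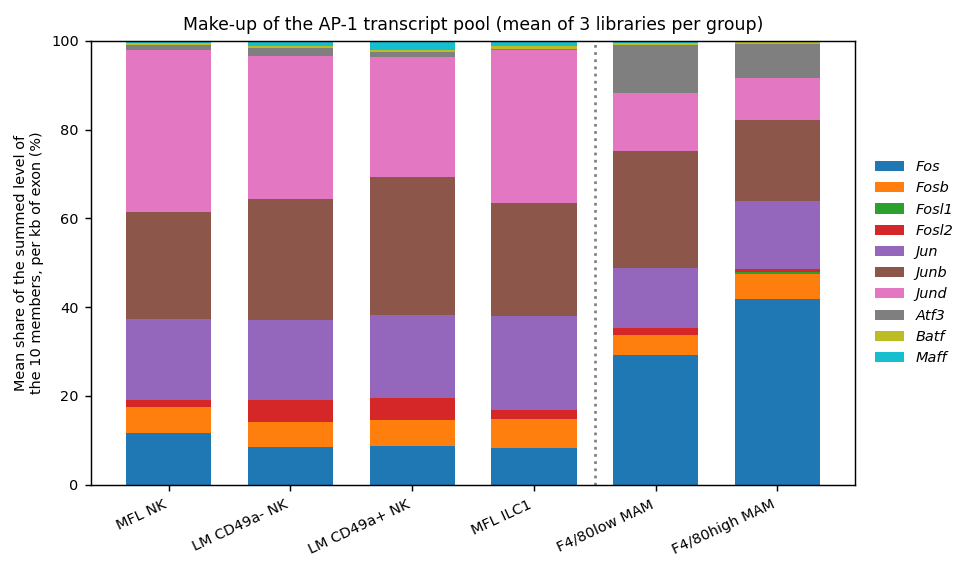
Stacked bars of the mean share (percent, 3 libraries per group) of each member in the summed level of the 10 members, per kilobase of exon. The 4 lymphocyte groups, left of the dotted line, are led by Jund, Junb and Jun, and both MAM groups, right of it, by Fos, at 29.1% and 41.9%, although Junb led in F4/80low cells with the longest transcript as length.

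Among the FOS genes, Fosl2 stood higher in NK cells of the metastasis than in those of the metastasis-free liver. Fosl2 encodes FRA-2, a FOS protein without the C-terminal transactivation domain of FOS. It was at 256, 294 and 340 CPM in MFL NK, at 1245, 572 and 2314 CPM in LM CD49a- NK, at 1261, 420 and 2158 CPM in LM CD49a+ NK and at 514, 316 and 289 CPM in MFL ILC1 replicates 1, 2 and 3. Every LM library was above every MFL NK library, and replicate 2 was the lowest of both LM groups.

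Maff, a small MAF gene that encodes a bZIP protein without a transactivation domain, followed a similar order of groups. It was at 26.3, 20.8 and 23.4 CPM in MFL NK, at 85.5, 28.6 and 200.3 CPM in LM CD49a- NK, at 169, 46.7 and 275 CPM in LM CD49a+ NK and at 129, 36.1 and 53.7 CPM in MFL ILC1. Every library of the other 3 groups was above every MFL NK library, and replicate 2 was again the lowest of both LM groups.

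**Figure D2:**
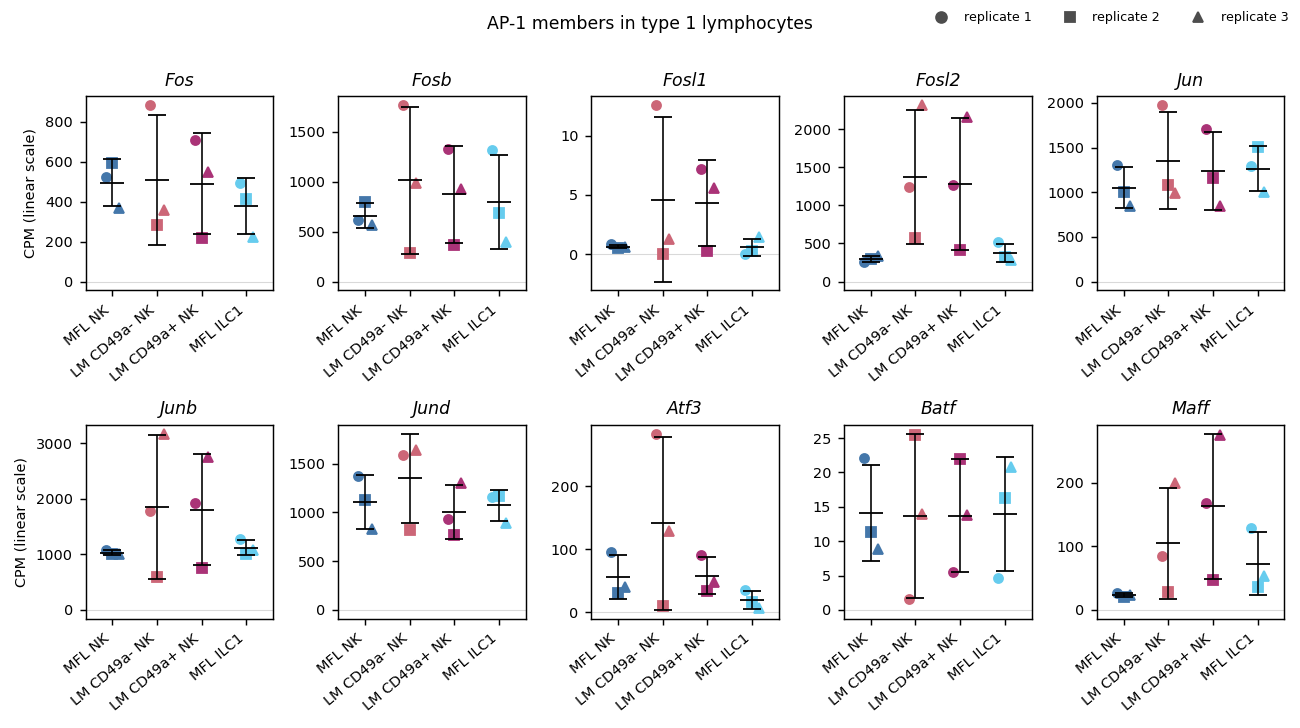
CPM on a linear axis for each member (one panel each) in the 12 lymphocyte libraries. Symbols are replicates 1 to 3, the horizontal line is the group mean and the bar its SD, which runs below 0 for Fosl1 in 2 groups. For Fosl2 and Maff, the MFL NK libraries (256 to 340 CPM and 20.8 to 26.3 CPM) lie below all LM libraries, and the symbol of replicate 2 lies lowest in both LM groups for most genes.

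For LM CD49a+ NK against MFL NK cells, 2 of the 10 members were called at an adjusted p under 0.1 by edgeR's quasi-likelihood test, against 88 of 13594 genes, 0.647% of those tested. Fosl2 was higher by a log2 fold change of 2.11 ± 0.49 (SE, edgeR adjusted p = 0.0831) and Maff by 2.80 ± 0.66 (edgeR adjusted p = 0.0837). They were also the 2 members whose groups did not overlap, against 7.06% of all genes with every LM CD49a+ NK library above every MFL NK library. Junb differed by 0.82 ± 0.46, which did not pass (edgeR adjusted p = 0.633), but it was called with no filter on low counts (0.0260). The other 7 had log2 fold changes between -0.15 and 2.74, and the upper value belongs to Fosl1, whose SE is 2.19. The median over the members was 0.32, and over all genes -0.04.

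Both calls lie close to the threshold and were lost without some libraries. Without MFL NK replicate 1, 2 or 3, the edgeR adjusted p was 0.363, 0.269 or 0.239 for Fosl2 and 0.323, 0.294 or 0.318 for Maff, and without LM CD49a+ NK replicate 1 or 3 it was 0.221 or 0.339 for Fosl2 and 0.221 or 0.307 for Maff. The Fosl2 call was also lost without MFL ILC1 replicate 1 (0.103), and when only the 2 groups were fitted (0.140, with Maff at 0.0808). The log2 fold change stayed between 1.497 and 2.52 for Fosl2 and between 2.19 and 3.24 for Maff over the 12 fits that left out 1 library.

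For LM CD49a- NK against MFL NK cells, edgeR called 0 of 10 members, against 10 of 13594 genes (0.0736%), a number that ran from 1 to 110 when 1 library was left out (86 without LM CD49a- NK replicate 2 and 110 without replicate 3). At an unadjusted p under 0.05 there were 2, Fosl2 and Maff, against 6.72% of all genes. DESeq2 and limma-voom each called these 2, against 161 and 104 of all genes. The log2 fold changes were 2.21 ± 0.50 for Fosl2 (edgeR adjusted p = 0.221) and 2.16 ± 0.64 for Maff (edgeR adjusted p = 0.510), and both had every LM library above every MFL NK library, as did 4.27% of all genes. Without LM CD49a- NK replicate 2, both passed (edgeR adjusted p = 0.0274 for Fosl2 and 0.0774 for Maff), and without LM CD49a+ NK replicate 2 or 3 Fosl2 passed (0.0648 or 0.0987). Of the 10 members, 9 had a positive log2 fold change, with a median of 0.73 against -0.09 for all genes. This comparison and the one before it share the MFL NK libraries.

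Within the metastasis, where dissociation was the same, CD49a+ and CD49a- NK cells were not separated by any member. By edgeR 0 of 10 were called, against 19 of 13594 genes (0.140%), and 0 had an unadjusted p under 0.05, against 11.6% of all genes. DESeq2 called 0 members, against 543 of all genes. Since limma-voom called 0 of all genes here, its 0 for the members says nothing about them. The difference was -0.11 ± 0.47 for Fosl2 (edgeR adjusted p = 0.974) and 0.64 ± 0.62 for Maff (edgeR adjusted p = 0.756) on the log2 scale. The largest was that of Atf3, lower by -1.29 ± 0.78 in CD49a+ cells (edgeR adjusted p = 0.544). With standard errors of 0.29 (Jund) to 2.05 (Fosl1), differences of this size were not detectable at this spread, and it does not follow that the levels were alike.

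For MFL ILC1 against MFL NK cells, edgeR called 0 of 10 members, against 416 of 13594 genes (3.06%). Maff alone had an unadjusted p under 0.05, which is 1 of 10 members against 8.37% of all genes. Maff was higher in ILC1 by 1.64 ± 0.63 (edgeR adjusted p = 0.337) and was the 1 member with every ILC1 library above every NK library, as for 12.2% of genes. DESeq2 called 0 of the members, against 667 of the 13594 genes. The limma-voom fit called 3 (Fos, Jun and Maff, 2 higher and 1 lower), against 2645 genes, so a call is common there. The interaction of CD49a and site asks whether the CD49a+ against CD49a- difference in the metastasis equals that of ILC1 against NK cells in the metastasis-free liver. For it edgeR called 0 of 10 members against 1.03% of genes, and DESeq2 and limma-voom called 0. No member had an unadjusted p under 0.05, against 8.70% of all genes.

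For LM CD49a+ NK cells against MFL ILC1, the CD49a+ populations of both sites, 1 of 10 members was called, against 486 of 13594 genes (3.58%). Fosl2 was higher in LM CD49a+ NK cells by 1.78 ± 0.49 (edgeR adjusted p = 0.0705), although its libraries overlap, since replicate 2 at 420 CPM lies below the 514 CPM of MFL ILC1 replicate 1. This call was lost without MFL ILC1 replicate 1, 2 or 3 (edgeR adjusted p = 0.118, 0.226 or 0.259), without LM CD49a+ NK replicate 1 or 3 (0.143 or 0.349) and with only the 2 groups fitted (0.114). Maff (1.16 ± 0.62, edgeR adjusted p = 0.440), Atf3 (1.56 ± 0.79, 0.398) and Junb (0.69 ± 0.45, 0.589) did not pass. The summed T cell markers that stand at 249 CPM or more in MFL ILC1 move with this comparison, and their part in it was not tested.

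The classic immediate early members Fos and Fosb differed less between groups than within them. Fos, the founding FOS gene, was at 525, 594 and 366 CPM in MFL NK, at 884, 285 and 357 CPM in LM CD49a- NK, at 709, 216 and 548 CPM in LM CD49a+ NK and at 496, 413 and 223 CPM in MFL ILC1. All 4 groups overlap, and the highest LM CD49a- NK library held 3.10 times the lowest. Fosb, its close relative, was at 619, 799 and 564 CPM in MFL NK, at 1765, 290.4 and 984 CPM in LM CD49a- NK, at 1326, 362 and 930 CPM in LM CD49a+ NK and at 1316, 684 and 398 CPM in MFL ILC1. Its range within LM CD49a- NK was 6.08-fold, wider than any difference between group means.

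Fosl1, which encodes FRA-1, was close to absent in lymphocytes. It had 7 to 10 counts a library in MFL NK, 113, 0 and 16 in LM CD49a- NK, 74, 3 and 56 in LM CD49a+ NK and 0, 4 and 15 in MFL ILC1, where 0 counts allow up to 0.332 CPM in the LM library and 0.255 CPM in the ILC1 library (3 counts each, counting error only). In CPM, 2 of 3 LM CD49a+ NK libraries (7.17 and 5.58) and 1 LM CD49a- NK library (12.6) were above the 0.817 CPM of the highest MFL NK library by a wide margin. With SEs from 2.05 to 2.21 on the log2 scale in the comparisons of 2 groups, no comparison of Fosl1 in lymphocytes passed.

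Among the JUN genes, Jun and Jund were the most even across the 12 lymphocyte libraries. Jun was at 1302, 1002 and 848 CPM in MFL NK, at 1975, 1084 and 992 CPM in LM CD49a- NK, at 1709, 1158 and 846 CPM in LM CD49a+ NK and at 1292, 1503 and 1002 CPM in MFL ILC1. Jund was at 1376, 1124 and 827 CPM in MFL NK, at 1592, 824 and 1635 CPM in LM CD49a- NK, at 930.3, 764 and 1304 CPM in LM CD49a+ NK and at 1162, 1167 and 888 CPM in MFL ILC1. Both genes overlap in all 4 groups, and their highest library of a group held at most 2.02 times the lowest.

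Junb, a JUN gene that is often induced together with Fos, was even in metastasis-free liver and uneven in the metastasis. It was at 1078, 1001 and 998 CPM in MFL NK and at 1283, 1015 and 1071 CPM in MFL ILC1, but at 1779, 585 and 3175 CPM in LM CD49a- NK and at 1919, 757 and 2746 CPM in LM CD49a+ NK. In both LM groups 2 libraries lay above and 1, replicate 2, lay below every MFL NK library.

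Atf3, a stress-induced bZIP gene, had the widest range within a group among the members detected in every library. It was at 95.7, 31.5 and 41.0 CPM in MFL NK, at 284, 10.1 and 129 CPM in LM CD49a- NK (28.2-fold), at 90.8, 34.2 and 48.7 CPM in LM CD49a+ NK and at 35.5, 16.2 and 7.11 CPM in MFL ILC1. Batf, whose protein pairs with JUN and works with IRF factors in lymphocytes, stayed below 26 CPM in every library and had nearly the same mean in all 4 groups (13.7 to 14.1 CPM), over ranges within groups of 2.48-fold (MFL NK) to 16.3-fold (LM CD49a- NK). In both LM groups Batf was highest in replicate 2.

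Replicate 2 was the lowest of its group for 8 of 10 members in LM CD49a- NK and for 8 of 10 in LM CD49a+ NK cells, and the lowest for 34.2% and 24.2% of all genes tested. The members were not alone in this. Of 30 tested genes of a list of other early response and dissociation genes, 20 and 18 were lowest in the same libraries. The heat shock genes Hspa1a and Hspa1b ran the other way in LM CD49a+ NK cells, where Hspa1b was at 514, 1654 and 454 CPM in replicates 1, 2 and 3. Nothing says which sort a replicate number stands for, and the source of the difference between replicates was not tested.

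**Figure D3:**
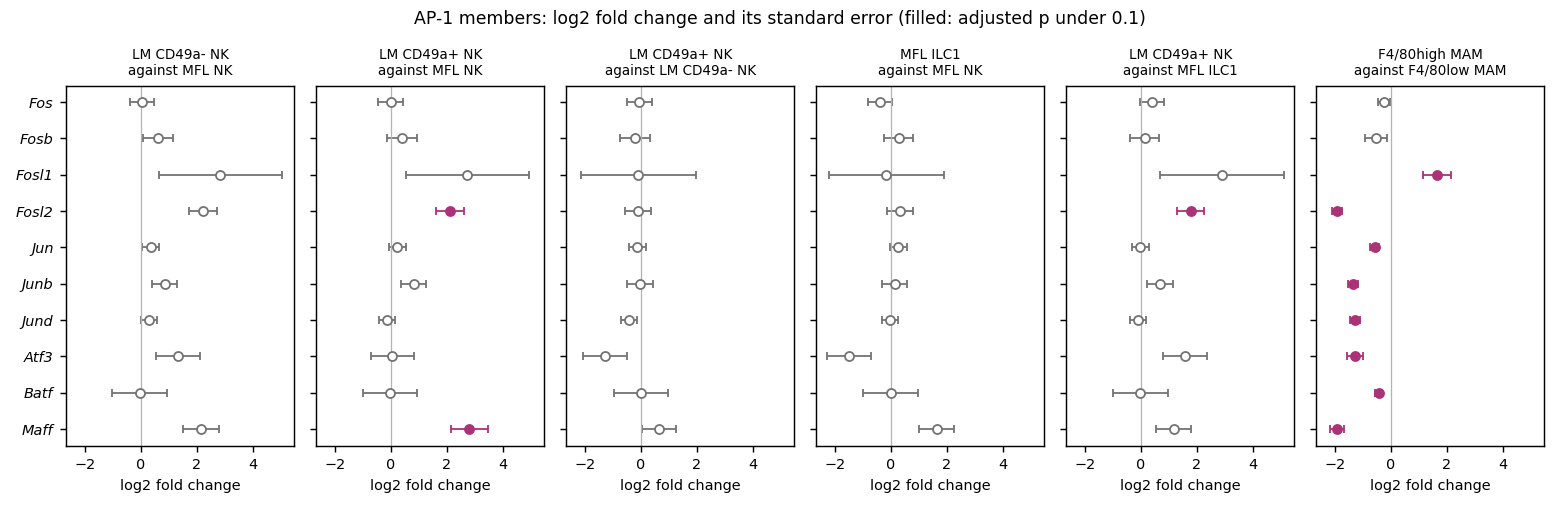
Log2 fold change (horizontal axis) and SE of the 10 members in 6 comparisons, with filled points for an edgeR adjusted p under 0.1. In lymphocytes the filled points are Fosl2 and Maff in LM CD49a+ NK against MFL NK and Fosl2 in LM CD49a+ NK against MFL ILC1, and in MAMs 8 of 10 points are filled, 7 of them to the left of 0.

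In the MAMs the AP-1 family was lower in F4/80high than in F4/80low cells for most members. By edgeR, 8 of 10 members were called, against 54.9% of the 13759 genes, so a call by itself is common here. Lower in F4/80high cells were 7 (Fosl2, Maff, Junb, Atf3, Jund, Jun and Batf), against 27.1% of genes, and 1 (Fosl1) was higher. At least 2-fold lower were 5 members, against 11.0% of genes. The same 7 had every F4/80high library below every F4/80low library (28.6% of genes), and Fosl1 had every one above (29.8% of genes). The median log2 fold change was -0.93 over the members and 0.01 over all genes.

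Fosl2 was at 547, 354 and 457 CPM in F4/80low and at 143, 98.7 and 116 CPM in F4/80high replicates 1, 2 and 3, a log2 fold change of -1.92 ± 0.19 (edgeR adjusted p = 9.03e-05). Maff was at 52.8, 29.7 and 37.5 CPM in F4/80low and at 13.5, 10.03 and 8.33 CPM in F4/80high cells, which is -1.92 ± 0.24 (edgeR adjusted p = 0.000343). Fosl2 and Maff thus had the largest decreases of the family between the MAM subsets. They were also the 2 members called higher in LM CD49a+ NK than in MFL NK cells, close to the threshold and not in every fit. For LM CD49a- NK against MFL NK cells edgeR called neither. The MAM and lymphocyte files were not compared with each other.

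Junb was at 2133, 1445 and 1837 CPM in F4/80low and at 805, 573 and 724 CPM in F4/80high cells (-1.37 ± 0.17, edgeR adjusted p = 0.00037). Jund was at 751, 528 and 615 CPM against 310, 198 and 271 CPM (-1.28 ± 0.19, edgeR adjusted p = 0.000745). Atf3 was at 917, 527 and 860 CPM against 370, 197 and 373 CPM (-1.29 ± 0.28, edgeR adjusted p = 0.00569). For these 3 genes the lowest F4/80low library was above the highest F4/80high library by a gap larger than the SD of the F4/80high group.

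Jun had a smaller decrease. It was at 1346, 1115 and 1177 CPM in F4/80low and at 858, 592 and 969 CPM in F4/80high cells (-0.59 ± 0.18, edgeR adjusted p = 0.0241). Batf, at 15.2, 18.7 and 17.4 CPM against 12.3, 14.03 and 11.4 CPM, was lower by -0.44 ± 0.13 (edgeR adjusted p = 0.0214).

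Fos and Fosb did not pass in the MAMs in the main fit. With the replicate number added to the model as a block, both were called (edgeR adjusted p = 0.0932 for Fos and 0.0267 for Fosb). Fos was at 2277, 1636 and 1984 CPM in F4/80low and at 1913, 1107 and 1918 CPM in F4/80high cells (-0.26 ± 0.22, edgeR adjusted p = 0.367), and Fosb at 1397, 516 and 686 CPM against 811, 347 and 636 CPM (-0.54 ± 0.40, edgeR adjusted p = 0.301). The groups of both genes overlap. Since Junb, Jund and Atf3 were lower, the share of Fos in the summed level per kilobase was higher in F4/80high cells, at 39.7% to 43.7% against 28.3% to 29.9%.

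Fosl1 was the member that went the other way. It was at 3.71, 1.503 and 4.58 CPM in F4/80low and at 7.11, 17.4 and 5.77 CPM in F4/80high cells, a log2 fold change of 1.63 ± 0.50 (edgeR adjusted p = 0.0270). It was the highest of its group in F4/80high replicate 2, the library that was lowest for 7 of the 10 members and for 36.6% of all genes. The log2 fold change of Fosl1 lay between 0.98 and 1.95 when 1 library was left out. All 8 calls remained in each of the 6 fits that left out 1 library.

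**Figure D4:**
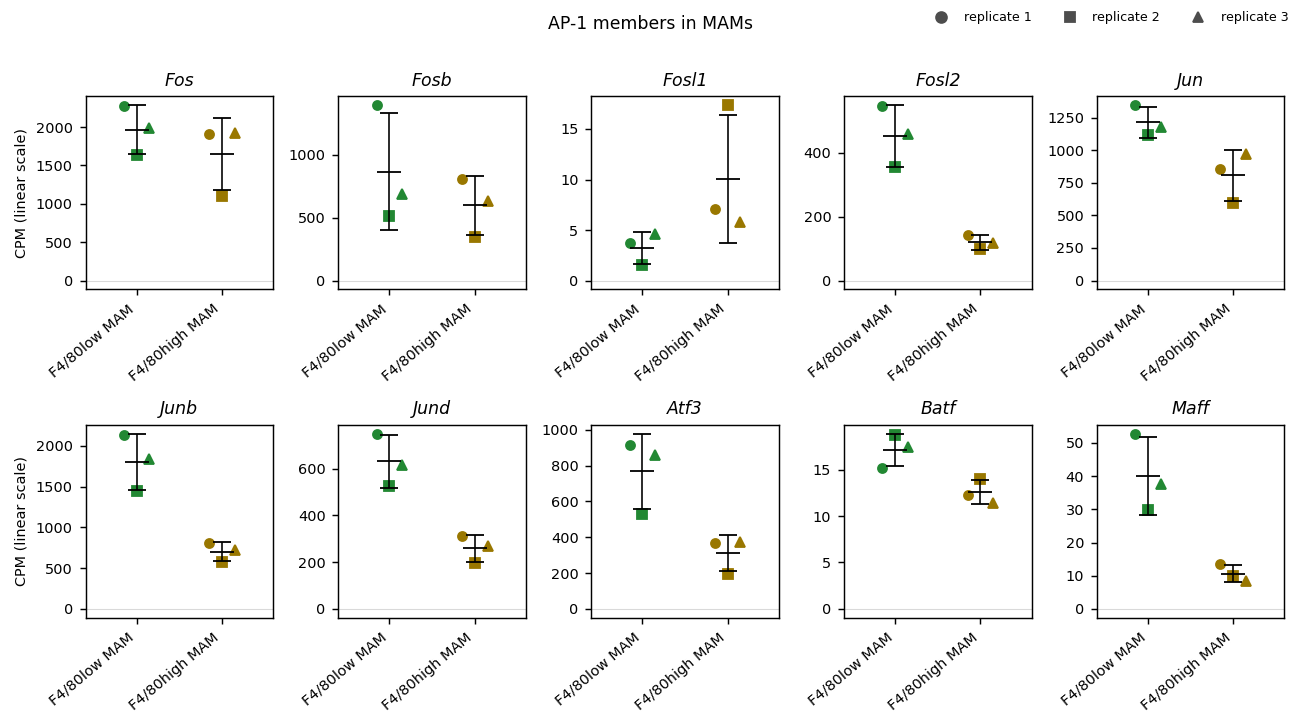
CPM on a linear axis for each member (one panel each) in the 6 MAM libraries, with replicates as symbols, the group mean as a line and its SD as a bar. All F4/80high libraries lie below all F4/80low libraries for Fosl2, Jun, Junb, Jund, Atf3, Batf and Maff, and above them for Fosl1, while Fos and Fosb overlap.

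Marker genes of other cells moved with the F4/80 subsets. The summed level of 6 dendritic cell markers was 375 to 668 CPM in F4/80low and 10.1 to 16.2 CPM in F4/80high cells, that of 5 classical monocyte markers 1646 to 1756 against 445 to 558 CPM and that of the 6 NK and ILC1 markers measured 23.0 to 39.4 against 1.95 to 3.29 CPM. The 10 macrophage markers summed to 10539 to 13430 CPM in F4/80low and 19615 to 25540 CPM in F4/80high cells. Sums in F4/80low and F4/80high cells were 96.4 to 134 and 73.9 to 104 CPM for 6 neutrophil, 6.36 to 19.7 and 18.6 to 36.9 CPM for 5 B cell, 7.52 to 21.5 and 6.41 to 14.9 CPM for 7 T cell, 9.10 to 10.9 and 6.68 to 15.8 CPM for 5 Kupffer cell and 213 to 244 and 362 to 727 CPM for 3 hepatocyte markers. Csf3r had the highest mean of the neutrophil markers in both subsets, so this sum hides the others. Of the 6 neutrophil markers, 5 were called lower in F4/80high cells (27.1% of all genes), with a median log2 fold change of -4.19. Of 6 hepatocyte markers listed, 3 were among the MAM genes. Trf had the highest mean of the 3 in both subsets, and it alone was called, higher in F4/80high cells. Among the 5 Kupffer cell markers, Cd5l, Marco and Vsig4 were called higher in F4/80high cells and Timd4 lower. Of 7 tumor epithelium markers only 2, Cdh1 and Epcam, were among the MAM genes, and no keratin or claudin of the list was. Cdh1 and Epcam summed to 197 to 281 CPM in F4/80low and 8.30 to 11.8 CPM in F4/80high cells, with Cdh1 the higher in both. The sums of 4 erythroid markers were 2.08 to 100.1 and 1.49 to 42.6 CPM. The share of mitochondrial, ribosomal and small RNA was 1.58% to 1.82% in F4/80high and 1.14% to 1.32% in F4/80low libraries, without overlap. No marker measured was at 0 throughout a subset, and the part of any of these cells or of this RNA share in the differences of the AP-1 genes was not tested.

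The genes around AP-1 were followed in 5 lists. In the MAMs, 10 of 18 measured genes of the MAP kinase and SRF input to AP-1 were called, close to the 54.9% of all genes, with 1 higher and 9 lower in F4/80high cells (27.1% of all genes were lower). The higher gene, named after its values were seen, was Mapk12, which encodes p38 gamma (2.15 ± 0.41, edgeR adjusted p = 0.00325). Its mean was low, under 5 CPM in both MAM subsets. Among the lower were Map2k1, the MEK1 gene (-0.60 ± 0.11, edgeR adjusted p = 0.0025), and Mapk13, which encodes p38 delta and was at 8.42 ± 1.67 against 0.345 ± 0.132 CPM (-4.63 ± 0.31, edgeR adjusted p = 1.27e-05). In lymphocytes edgeR called 0 of 15 genes of this list in each of the 6 comparisons, while DESeq2 called 0 or 1 and limma-voom 0 to 2. In each, 1 gene had an unadjusted p under 0.05, against 6.72% to 14.1% of all genes.

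The feedback list includes genes of the dual specificity phosphatases (DUSPs) that switch off MAP kinases and of the ZFP36 proteins that shorten early transcripts. It also includes Fbxw7 and Itch, which are neither. Its genes were mostly lower in F4/80high MAMs, as the members were. Called lower were 10 of 14, Fbxw7 and Itch among them (against 27.1% of all genes), and 2 were higher. The median log2 fold change was -0.99, against 0.01 for all genes. Dusp5 was 175 ± 63.6 CPM in F4/80low and 16.0 ± 8.29 CPM in F4/80high cells (-3.46 ± 0.40, edgeR adjusted p = 0.000215), and Dusp2 54.9 ± 16.9 against 13.9 ± 4.38 CPM (-1.98 ± 0.27, edgeR adjusted p = 0.000511). Higher in F4/80high cells were Dusp7 (1.06 ± 0.19, edgeR adjusted p = 0.00205) and Dusp6, a phosphatase of ERK (0.40 ± 0.14, edgeR adjusted p = 0.0401, and 0.101 without F4/80high replicate 3).

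In the lymphocytes Dusp6 marked MFL ILC1, at 174 ± 7.37 CPM against 44.1 ± 3.71 CPM in MFL NK cells (1.98 ± 0.34, edgeR adjusted p = 0.00203), and it stayed called in each of the 12 fits that left out 1 library. Against MFL ILC1, LM CD49a+ NK cells had less of it (-1.28 ± 0.33, edgeR adjusted p = 0.0519), a call that was lost without MFL ILC1 replicate 1, 2 or 3 or LM CD49a+ NK replicate 2 or 3 (adjusted p up to 0.206). Dusp5 was higher in LM CD49a+ NK than in MFL ILC1 (1.60 ± 0.46, edgeR adjusted p = 0.0931), lost without any of the MFL NK or MFL ILC1 replicates or LM CD49a+ NK replicate 1 or 3 (up to 0.431) and with only the 2 groups fitted (0.128). Zfp36l1 was higher in LM CD49a+ NK than in MFL NK cells (1.54 ± 0.33, edgeR adjusted p = 0.048), lost without any MFL NK replicate or LM CD49a+ NK replicate 1 or 3 (up to 0.294) and with only the 2 groups fitted (0.147). These were 1 of 14 genes for ILC1 against NK cells (3.06% of all genes), 2 of 14 for LM CD49a+ NK against MFL ILC1 (3.58%) and 1 of 14 for LM CD49a+ NK against MFL NK (0.647%). Of the 14 genes DESeq2 called 2, 2 and 1, against 667, 1010 and 365 of all 13594 genes. The limma-voom calls were 7, 2 and 1, against 2645, 935 and 307 of all genes.

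Of 11 other bZIP genes measured in the MAMs, 4 were higher and 3 lower in F4/80high cells, where 54.9% of all genes were called. Maf, a large MAF gene of tissue macrophages, was 654 ± 106 CPM in F4/80high and 129 ± 54.8 CPM in F4/80low cells (2.35 ± 0.30, edgeR adjusted p = 0.000371). Mafk, a small MAF gene like Maff, was lower in F4/80high cells (-0.91 ± 0.10, edgeR adjusted p = 0.000219), as was Batf3, a bZIP gene of cross-presenting dendritic cells (-0.90 ± 0.15, edgeR adjusted p = 0.00161). The other called genes, Atf2 and Mafg (higher) and Jdp2 (lower), were named after their values were seen, with log2 fold changes of 0.17, 0.33 and -0.43. These calls were lost without F4/80high replicate 1 or 3 or any F4/80low replicate for Atf2 (up to 0.216), without replicate 1 or 2 of either subset for Mafg (up to 0.215) and without F4/80high replicate 1 or F4/80low replicate 3 for Jdp2 (up to 0.141), and that of Atf2 also with RLE scaling, DESeq2 and the replicate block (up to 0.198). Atf5 was higher (0.58 ± 0.19, edgeR adjusted p = 0.0344, and 0.102 without F4/80low replicate 2). In lymphocytes 1 of 10 was called for MFL ILC1 against MFL NK cells, against 3.06% of all genes. It was Maf (1.73 ± 0.44, edgeR adjusted p = 0.0422), which was lost without any MFL NK replicate or without MFL ILC1 replicate 2 or 3 (up to 0.198). No gene of this list was called by edgeR in the other lymphocyte comparisons.

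**Figure D5:**
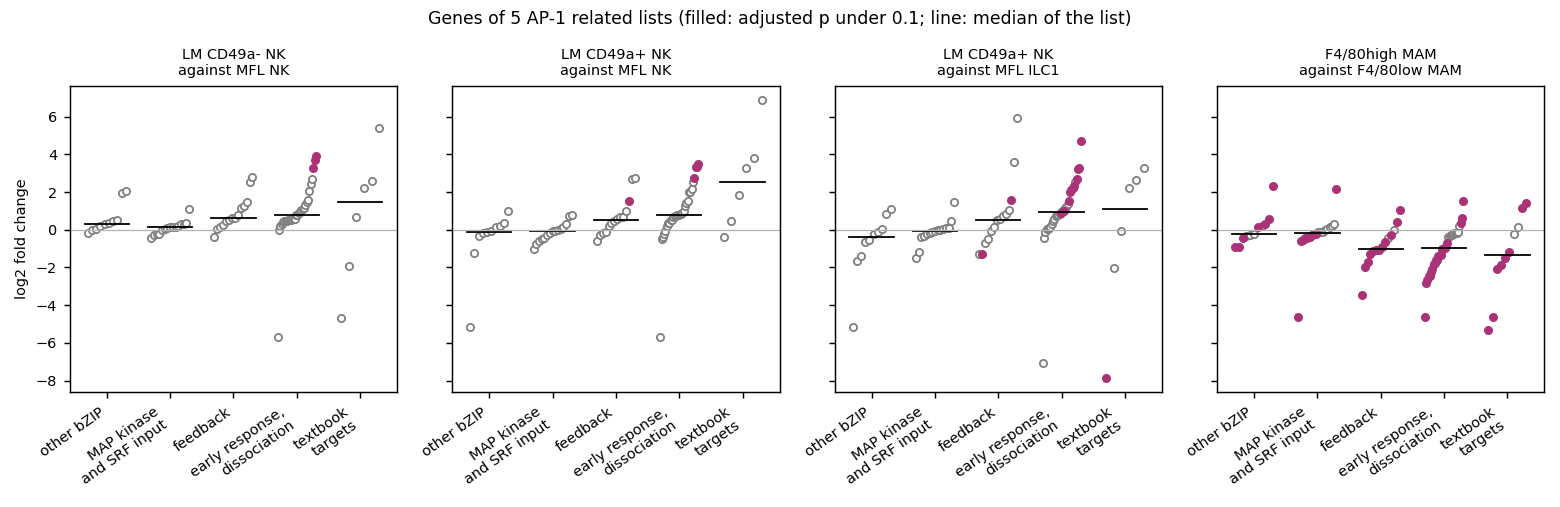
Log2 fold change (vertical axis) of the measured genes of 5 AP-1 related lists in 4 comparisons, with filled points for an edgeR adjusted p under 0.1 and a line at the median of each list. In the early response and dissociation list, 3, 3 and 11 of 30 genes are filled above 0 in the 3 lymphocyte comparisons, and in the MAMs 19 of 32 are filled below 0 and 3 above.

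Some other early response and dissociation genes were higher in the digested metastasis. Of 30 measured, 3 were called in LM CD49a- NK against MFL NK cells and 3 in LM CD49a+ NK against MFL NK cells, in both cases Hspa1a, Hspa1b and Nr4a3, and 11 in LM CD49a+ NK against MFL ILC1, with none called lower by edgeR. Of all genes, 0.0736%, 0.647% and 3.58% were called in these comparisons. Of the list DESeq2 called 7, 8 and 12, against 161, 365 and 1010 of all 13594 genes. With limma-voom it was 10, 6 and 12 of the list, against 104, 307 and 935 of all genes. The medians of the list were 0.78, 0.80 and 0.94 on the log2 scale, against -0.09, -0.04 and -0.07 for all genes. Nr4a3, named after its values were seen because so few genes were called, was higher by 3.26 ± 0.58 in LM CD49a- NK (edgeR adjusted p = 0.0675) and 2.75 ± 0.57 in LM CD49a+ NK cells (edgeR adjusted p = 0.0400) against MFL NK. Both calls were lost without any MFL NK replicate and with only the 2 groups fitted, the former also without LM CD49a- NK replicate 1 or MFL ILC1 replicate 1 (up to 0.417) and the latter also without LM CD49a+ NK replicate 3 (up to 0.260). Hspa1b, a heat shock gene, was 79.0 ± 12.7 CPM in MFL NK, 1039 ± 373 in LM CD49a- NK, 874 ± 676 in LM CD49a+ NK and 90.1 ± 68.3 in MFL ILC1. This gave 3.47 ± 0.57 for LM CD49a+ NK against MFL NK (edgeR adjusted p = 0.00858) and 3.72 ± 0.58 for LM CD49a- NK against MFL NK (0.0201, and up to 0.206 without MFL NK replicate 1 or 3). Hspa1a and Hspa1b are near-identical copies, and how the counting split reads between them is uncertain. Hspa1a was higher by 3.34 ± 0.69 (LM CD49a+ NK against MFL NK, edgeR adjusted p = 0.0385) and 3.901 ± 0.70 (LM CD49a- NK against MFL NK, 0.0675), calls lost without any MFL NK replicate and without LM CD49a+ NK replicate 2 or LM CD49a- NK replicate 1 respectively (up to 0.224 and 0.417).

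Nr4a1, an orphan receptor gene induced by antigen receptor signals, was the gene with the largest fold change of the list in LM CD49a+ NK against MFL ILC1, at 845, 222 and 3007 CPM against 79.2, 38.0 and 39.5 CPM (4.70 ± 0.76, edgeR adjusted p = 0.00168). Against MFL NK cells, handled in the same way, MFL ILC1 had less of it (-2.52 ± 0.69, edgeR adjusted p = 0.0712), a call lost without MFL NK replicate 1 or 3 or any MFL ILC1 replicate (up to 0.256). Hspa1b was higher in LM CD49a+ NK cells than in MFL ILC1 by 3.28 ± 0.57 (edgeR adjusted p = 0.00297). Within the metastasis, CD49a+ against CD49a-, edgeR called 0 of 30 genes of this list, and DESeq2 called 0. An unadjusted p under 0.05 was reached by 4 of the 30, against 11.6% of all genes. The limma-voom fit called 0 of all genes here, so its 0 for the list says nothing about it.

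In the MAMs, both digested, 19 of 32 genes of the early response list were lower in F4/80high cells (27.1% of all genes) and 3 were higher, with a median log2 fold change of -0.97. Nr4a1 was 1359 ± 309 CPM in F4/80low and 191 ± 107 CPM in F4/80high cells (-2.83 ± 0.38, edgeR adjusted p = 0.000469), and Nr4a3 125 ± 71.6 against 5.20 ± 4.59 CPM (-4.64 ± 0.65, edgeR adjusted p = 0.000653). Higher were Ccn1 (1.503 ± 0.58, edgeR adjusted p = 0.0627), lost without F4/80high replicate 2 or F4/80low replicate 3 (up to 0.191) and with DESeq2 (0.110), and Rhob (0.60 ± 0.25, edgeR adjusted p = 0.0785), lost without F4/80high replicate 1 or 3 or F4/80low replicate 1 or 2 (up to 0.218). Genes of this list were thus unequal between both subsets, as AP-1 members were, and the part of dissociation in either was not tested.

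Of the textbook AP-1 target genes, 10 were measured in the MAMs, of which 6 were lower (27.1% of all genes) and 2 higher in F4/80high cells. Mmp9, a gelatinase gene, was 353 ± 77.2 CPM in F4/80low and 8.85 ± 2.12 CPM in F4/80high cells (-5.31 ± 0.24, edgeR adjusted p = 2.48e-06), and Mmp13, a collagenase gene, was lower by -2.09 ± 0.83 (edgeR adjusted p = 0.0693), lost without any F4/80high replicate or F4/80low replicate 3 (up to 0.494) and with limma-voom (0.303). Plau, the urokinase gene, was higher in F4/80high cells (1.45 ± 0.14, edgeR adjusted p = 9.22e-05), as was the chemokine gene Ccl2 (1.13 ± 0.18, edgeR adjusted p = 0.0012). In lymphocytes, Mmp9 was the 1 called gene of the 6 measured, at 107 to 155 CPM in MFL ILC1 and at most 1.64 CPM in any library of the other 3 groups. It was called for MFL ILC1 against MFL NK (edgeR adjusted p = 0.000313) and for LM CD49a+ NK against MFL ILC1 (0.0013). Of all genes, 3.06% and 3.58% were called in these comparisons.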

How the data were processed

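Reads were trimmed by the authors with Trim Galore and assigned to GRCm39 transcripts with Salmon (v1.5.0 for lymphocytes with GENCODE M27, v1.10.0 for MAMs per the labels). Deposited were estimated counts, a whole number per gene and library without normalization, for 54309 genes (lymphocytes, total RNA kit) and 13759 genes (MAMs, poly(A) kit). Names and positions came from GENCODE vM39, which held 53700 and 13726 of these IDs. Genes kept by filterByExpr (13594 and all 13759) were scaled by TMM and tested with edgeR v4.0.16 (R v4.3.3) in 1 fit per file, with Benjamini-Hochberg adjustment over all genes and a threshold of 0.1. The standard error is the log2 fold change divided by the square root of F. limma v3.58.1 and DESeq2 v1.42.0 were alternatives, and scripts were tested on simulated data. Figures used matplotlib v3.10.9. Promoter stretches came from RefSeq (GRCm38.p6). The 10 members and the gene lists were chosen with earlier results of these data known. Named from each list were, per comparison and direction, at most 2 called genes with the largest change and a mean of at least 5 CPM in 1 group. Genes said to be named after their values were seen are exceptions to this rule. Each lymphocyte library is a sort from pooled tissue, and nothing says that MAM libraries came from separate animals, so p-values measure the spread between these libraries.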

Additional observations from a re-analysis of the deposited data

Results flagged for a closer look

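Dusp6, the ERK phosphatase gene, was the 1 gene of the 5 AP-1 related lists that edgeR called for the interaction of CD49a and site. It was 1 of 14 genes of the feedback list, against 1.03% of all genes. The contrast sets CD49a+ against CD49a- NK cells in the metastasis beside ILC1 against NK cells in metastasis-free liver. Cell type and site therefore cannot be told apart in it. The interaction of CD49a and site was -1.90 ± 0.47 on the log2 scale (edgeR adjusted p = 0.0876), with Dusp6 at 48.2, 43.0 and 41.0 CPM in MFL NK, 180, 176 and 166 CPM in MFL ILC1, 38.8, 95.1 and 68.9 CPM in LM CD49a- NK and 96.2, 72.7 and 46.3 CPM in LM CD49a+ NK replicates 1, 2 and 3. The call was kept in 2 of 12 fits that left out 1 library, those without LM CD49a- NK replicate 1 or LM CD49a+ NK replicate 1, with an adjusted p of up to 0.237 in the others, and was lost with the replicate block (0.110). Groups of 3 libraries were not screened for single values far from the rest.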

How the results depend on the processing

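The number of members called was the same in every alternative for LM CD49a+ NK against LM CD49a- NK and for the interaction (0), and stayed at 8 to 10 for the MAMs. For LM CD49a+ NK against LM CD49a- NK, limma-voom called 0 of all genes. For LM CD49a- NK against MFL NK it was 0 by edgeR, 3 with no filter on low counts, 2 with DESeq2, 2 with limma-voom and 1 with the replicate block. For LM CD49a+ NK against MFL NK it was 2, then 0 at an adjusted p under 0.05, 3 with no filter (with Junb) and 1 with only the groups compared. For MFL ILC1 against MFL NK it was 0, then 2 with no filter, 3 with limma-voom and 1 with only the groups compared. For LM CD49a+ NK against MFL ILC1 it was 1, then 0 at an adjusted p under 0.05, 4 with no filter and 0 with only the groups compared. Leaving out 1 library gave 0 to 2, 0 to 2, 0 to 0, 0 to 1 and 8 to 8 members for LM CD49a- NK against MFL NK, LM CD49a+ NK against MFL NK, MFL ILC1 against MFL NK, LM CD49a+ NK against MFL ILC1 and the MAMs. The cause of these changes was not tested.

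The direction reversed for Maff in LM CD49a+ against LM CD49a- NK with limma-voom (-0.053), and for Fosb, Fosl1 and Jun in LM CD49a- NK against MFL NK without LM CD49a- NK replicate 1 (-0.055, -0.012 and -0.021). Over the fits without 1 library these 3 ranged from -0.055 to 1.05, -0.012 to 3.41 and -0.021 to 0.54. Of 38 member differences within 1 standard error of 0, 30 changed sign under an alternative. limma-voom moved the median log2 fold change of all genes in LM CD49a- NK against MFL NK from -0.09 to -0.36, and the fold changes of members are to be read against it. The lymphocytes came from separate sorts, but neither the labels nor the methods tie a replicate number to a sort, and the libraries were not treated as paired. Same-numbered libraries deviated with correlations of -0.05 to 0.10 (lymphocytes, 18 pairs) and -0.01 to 0.17 (MAMs, 3 pairs). The replicate block called 10 members in the MAMs, with Fos at an adjusted p of 0.0932 and Fosb at 0.0267, and changed no other member call besides that of Fosl2 in LM CD49a- NK against MFL NK (0.0993). Of the mean shares of 10 members in 6 groups, 33 of 60 moved by more than 1 SD with CPM in place of CPM per kilobase and 21 with the longest transcript as length.

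Over all genes, the calls of edgeR, DESeq2, limma-voom and edgeR with no filter were 10, 161, 104 and 158 for LM CD49a- NK against MFL NK, 88, 365, 307 and 371 for LM CD49a+ NK against MFL NK, 19, 543, 0 and 200 for LM CD49a+ against LM CD49a- NK, 416, 667, 2645 and 599 for MFL ILC1 against MFL NK and 486, 1010, 935 and 774 for LM CD49a+ NK against MFL ILC1. For the interaction, DESeq2 called 349 and the fit without a filter 264, against 140. With only the groups compared, the calls were 3 for LM CD49a- NK against MFL NK, 3 for LM CD49a+ against LM CD49a- NK and 1228 for MFL ILC1 against MFL NK.

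The spread between 3 libraries a group was widest in the LM groups, and Fosl1 had few counts in lymphocytes. LM CD49a- NK replicates 1 and 2 had 9885 and 9608 genes with at least 10 counts, against 11780 to 13205 in MFL NK libraries. The share of mitochondrial, ribosomal and small RNA was 3.68% to 15.2% over the lymphocyte libraries. The part of spread, depth or this RNA share in these values was not tested. An exact permutation test of 3 libraries against 3 cannot go below p = 0.1.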
